A study of Mus musculus with 4 samples.

Results

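The 4 mouse Mef2 genes, Mef2a, Mef2b, Mef2c and Mef2d, were examined for chromatin regions bound by BRG1/BRM in cultured cortical neurons. The regions, called islands, were those lying in or within 200 kb of a Mef2 gene on mouse build mm10. There were 38 of them among 21677 islands in all, 34 of 20966 in depolarized (KCl) neurons and 4 of 711 in basal neurons. They were chosen by gene and distance, and with the width of the broad KCl island beside Mef2c already seen, so number, width and enrichment are given as a description and were not tested.

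BRG1 and BRM are alternative ATPases of BAF, the mammalian SWI/SNF complex that moves nucleosomes. The J1 antibody binds both, so immunoprecipitation (IP) with it reports their summed occupancy. Neurons came from wild-type E16.5 mouse cortex and were harvested after 6 days in vitro. The basal group had the basal level of KCl. The KCl group had 50 mM KCl for 1 h, after 1 µM TTX, a sodium channel blocker, and 100 µM APV, an NMDA receptor antagonist, had been given on day 5 against spontaneous activity. The labels do not settle whether basal cultures also received these blockers. Each condition had 1 IP library and 1 input library, so no difference between conditions has a replicate check. Every fold below is the authors' value for that island, the ratio of IP to control reads scaled by library size. The bracket after it is a 95% exact (Clopper-Pearson) interval for counting error only.

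MEF2 proteins are MADS-box transcription factors that bind AT-rich DNA as dimers. In neurons, calcium entry acts on them through the phosphatase calcineurin and through kinases, while class IIa histone deacetylases hold them in a repressed state. MEF2C is prominent in developing cortical neurons, and MEF2 factors are known for controlling activity-dependent genes and the number of synapses.

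Basal islands held 142021 IP reads and KCl islands 1433200, and the median fold was 1.80 for basal islands and 2.40 for KCl islands. No basal island had under 18 IP reads and no KCl island under 20, and the depth of the libraries is unknown. Occupancy does not measure expression, so cell type markers could be read only through islands at their ends (2 kb to either side). In KCl such islands were found at 6 of 8 cortical neuron genes, 2 of 4 astrocyte, 2 of 4 oligodendrocyte lineage, 0 of 4 microglia, 0 of 3 endothelial and 1 of 3 muscle genes, against 25.2% of all protein-coding genes.

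The 4 paralogues differed widely in how many islands surrounded them. After KCl, 20 islands lay around Mef2c, 7 around Mef2d, 4 around Mef2a and 3 around Mef2b. An island within 200 kb was common, since 84.5% of 21887 protein-coding genes had at least 1 in KCl, and the median gene had 3. Mef2b and Mef2a were thus close to the median gene, and the Mef2c count stood at percentile 99.8 of all genes. In basal neurons 4 islands lay around Mef2c and 0 around each of the other 3 genes, where 7.91% of protein-coding genes had one. Absence of a call does not show absence of binding. With islands of at least 2-fold only, the KCl counts were 13 for Mef2c, 2 for Mef2a, 1 for Mef2d and 0 for Mef2b, and no basal island was left. Of all KCl islands 66.6% reached 2-fold, a share near that of the islands around Mef2c and above those around the other 3 genes.

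Covered length set the genes apart further. KCl islands covered 105.8 kb of the Mef2c window, which is 18.8% of it. They covered 29.8 kb (6.93%) for Mef2d, 9.2 kb (1.69%) for Mef2a and 6.6 kb (1.59%) for Mef2b. The median protein-coding gene had 1.51% of its window covered, and the 95th percentile was 4.71%. Mef2c and Mef2d lay above that percentile, while Mef2a and Mef2b lay near the median. The Mef2c value did not rest on the broad island alone: without it, 19 islands covered 67.2 kb, or 11.9% of the window.

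**Figure D1:**
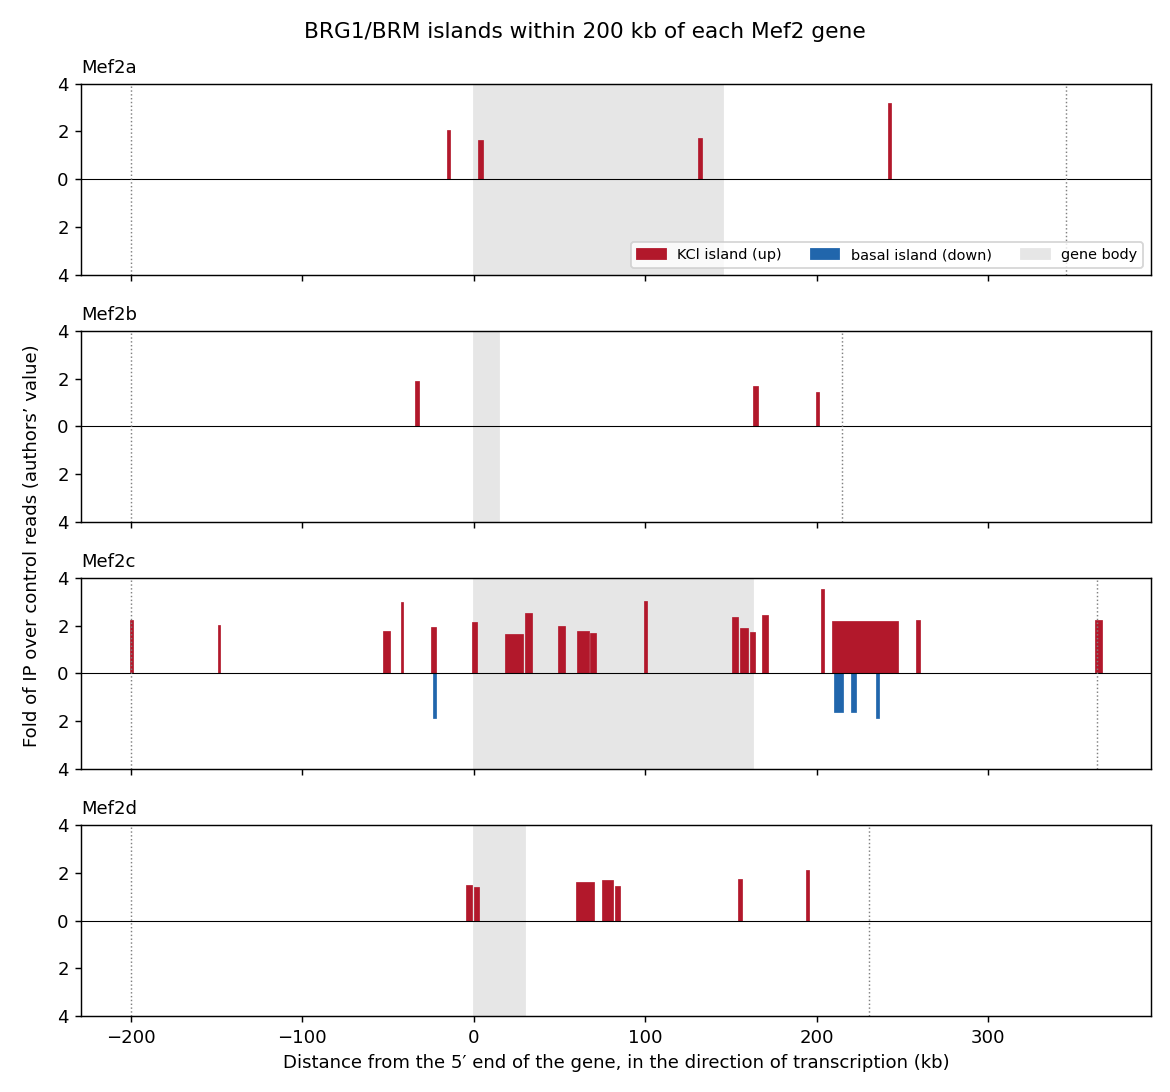
BRG1/BRM islands within 200 kb of each Mef2 gene. The x axis is the distance from the 5′ end of the gene in kb, in the direction of transcription, and bars have the true width of each island and the height of its fold, KCl islands upward in red and basal islands downward in blue. Gray marks the gene and dotted lines the 200 kb limits. Mef2c has 20 KCl and 4 basal islands, and the other genes have 3 to 7 KCl islands and no basal island.

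Pooled over the islands of each window, 3621 IP reads stood against 1080 control reads for Mef2c (2.11-fold [1.97 to 2.26]). For Mef2d there were 902 against 356 (1.59-fold [1.41 to 1.80]), for Mef2a 284 against 93 (1.92-fold [1.51 to 2.45]) and for Mef2b 190 against 70 (1.70-fold [1.29 to 2.28]). Differences between these pooled folds were not tested, since each interval covers counting error only, over islands that entered because they were called enriched. Leaving out the broad island gave 2.05-fold [1.88 to 2.24] for Mef2c. The interval of the single island lay above 1 for 20 of 20 islands at Mef2c, 4 of 4 at Mef2a, 2 of 3 at Mef2b and 5 of 7 at Mef2d, against 86.4% of all KCl islands.

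As a group the 34 KCl islands were wide and modestly enriched. Their median width was 2.9 kb against 1.6 kb in the whole list, and 28 of 34 were wider than the list median. Their median fold was 1.92 against 2.40, and 28 of 34 lay below the list median. Width and fold ran in opposite directions across the whole list as well, from a median of 3.68-fold in islands up to 1 kb to 1.72-fold in those of 5 to 10 kb. Median control density was 10.1 reads per kb in the Mef2 islands and 9.38 in the list.

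**Figure D2:**
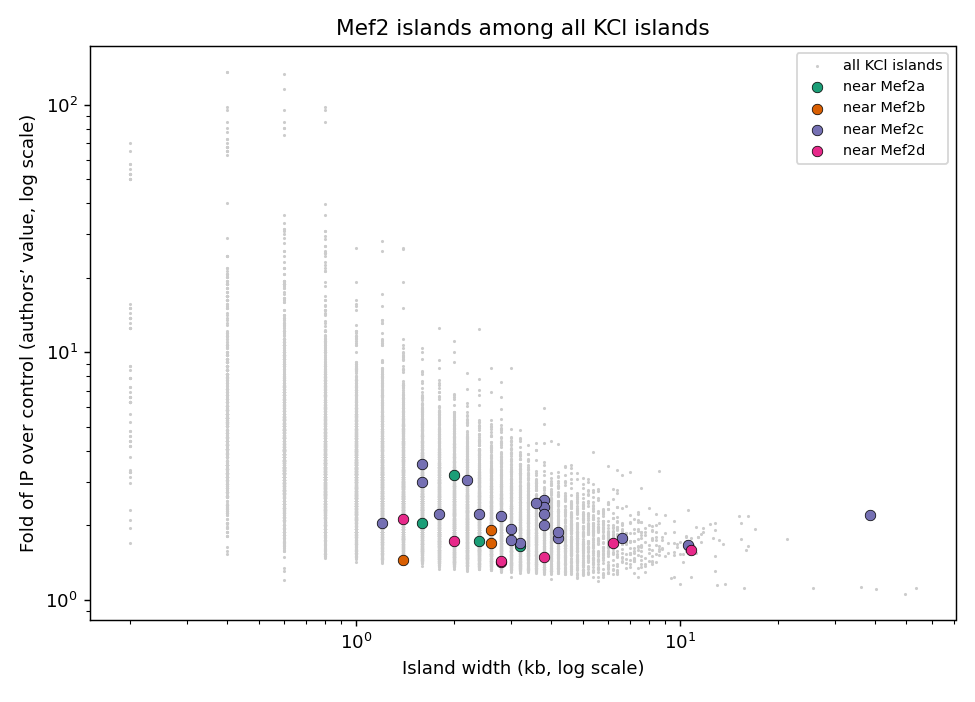
Fold of IP over control against width in kb for every KCl island, both on log scales. Gray dots are all 20966 islands and coloured dots the 34 Mef2 islands by gene. Folds of the 43 islands with 0 control reads are plotted as the authors gave them, and none of these is a Mef2 island. The Mef2c island at 38.6 kb and 2.19-fold is the widest of those at 2-fold or more.

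The broad island lay downstream of Mef2c, 45.7 kb beyond the gene (chromosome 13, 83712801 to 83751400). It was 38.6 kb wide and held 1504 IP reads and 431 control reads, which is 2.19-fold [1.97 to 2.45]. These were 41.5% of the IP reads in all Mef2c islands. By the authors' p-value, 3.59e-160, it ranked 1 of the 20966 KCl islands, and by width it ranked 4. By IP reads per kb it ranked 8430 and by fold 12228, its fold being below the list median of 2.40. The 3 wider islands had folds of 1.11, 1.05 and 1.11 and large control counts, the lowest being 1221 control reads. Of the 13955 KCl islands of at least 2-fold it was the widest, and the next, 16.2 kb wide, had 2.17-fold [1.86 to 2.55]. Of the 49 KCl islands of 10 kb or more, 7 reached 2-fold, and their median fold was 1.71. Only 0.676% of protein-coding genes had an island that wide within 200 kb, and Mef2c and Mef2d were among them.

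The broad island covered the microRNA gene Mir9-2 and all 3 RefSeq starts of C130071C03Rik, the long noncoding RNA gene in which the Mir9-2 hairpin lies. It also covered the start of Gm52046, a noncoding gene on the other strand whose start lies beside that of C130071C03Rik. miR-9 is a microRNA of the developing brain that promotes neuronal differentiation of progenitors. The Mir9-2 hairpin lay 71.7 kb downstream of Mef2c (chr13:83738814-83738885, plus strand, GRCm38.p6). Mir9-1, which gives the same mature sequence, lay 43.5 kb downstream of Mef2d (chr3:88215598-88215686, plus strand), and 0 Mir9 genes lay within 200 kb of Mef2a or Mef2b. Sequences from RefSeq are shown because they identify these loci. Capitals mark the miR-9-5p seed, bases 2 to 8 of the mature strand:
miR-9-5p: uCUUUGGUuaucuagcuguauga
Mir9-2 hairpin: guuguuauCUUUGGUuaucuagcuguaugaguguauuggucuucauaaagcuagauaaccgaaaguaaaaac
Mir9-1 hairpin: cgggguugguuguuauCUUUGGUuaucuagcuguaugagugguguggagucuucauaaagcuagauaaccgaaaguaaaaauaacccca

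Of the 4 basal islands, 3 lay inside the broad KCl island. The first (83714001 to 83719200) was 5.2 kb wide, with 110 IP and 77 control reads (1.62-fold [1.20 to 2.20]), and overlapped Gm52046. The second (83723801 to 83726800) lay in C130071C03Rik between its starts, with 58 IP and 41 control reads (1.61-fold [1.06 to 2.46]). The third (83738601 to 83740000) covered the Mir9-2 hairpin itself, with 47 IP and 29 control reads (1.84-fold [1.14 to 3.03]). Together they covered 24.9% of the width of the KCl island. Their pooled basal fold was 1.66 [1.34 to 2.06] over 9.6 kb, which is not compared with the KCl fold, since the regions were called separately in each list. With an FDR of at most 1e-05, 1 of the 4 basal islands was left, the one of 5.2 kb.

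The remaining basal island lay upstream of Mef2c, 22.2 kb from the gene (83480401 to 83481800), where 43 IP reads stood beside 26 control reads (1.88-fold [1.13 to 3.19]). It lay wholly inside a KCl island (83479201 to 83482200) of 108 IP and 35 control reads (1.94-fold [1.31 to 2.92]). All 4 basal islands were thus inside KCl islands, where 63.2% of all basal islands overlapped one. Conversely 2 of the 34 KCl islands, both at Mef2c, overlapped a basal island, against 2.15% of the KCl list.

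**Figure D3:**
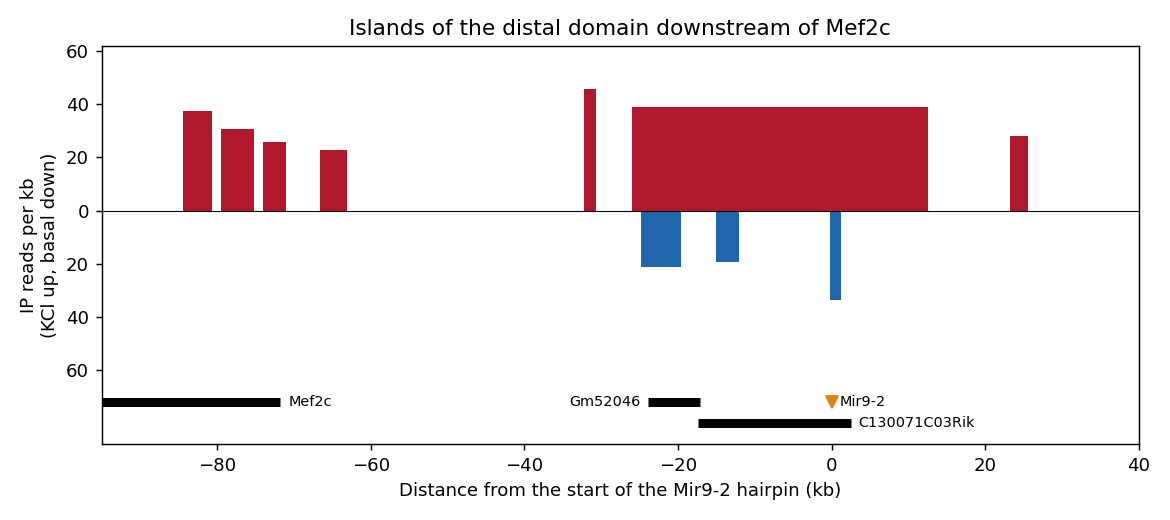
Islands downstream of Mef2c, with distance from the start of the Mir9-2 hairpin in kb on the x axis and IP reads per kb on the y axis, KCl upward in red and basal downward in blue. Bars have the true width of the islands, and black bars below are genes. The depth of the libraries is unknown, and the heights are not comparable between the conditions. The 38.6 kb KCl island spans the noncoding gene and the hairpin, and the 3 basal islands lie inside it.

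On either side of the broad island lay a narrower one. At 39.5 kb from the gene, an island of 1.6 kb (83706601 to 83708200) had 73 IP and 13 control reads, 3.53-fold [1.94 to 6.94], the largest fold of all 34. At 94.9 kb, an island of 2.4 kb (83762001 to 83764400) had 67 IP and 19 control reads (2.21-fold [1.31 to 3.90]). Joining islands across gaps of up to 12.5 kb made these 3 a domain of 57.8 kb (83706601 to 83764400), 73.7% of it covered, with 1644 IP and 463 control reads (2.23-fold [2.01 to 2.48]). By span it ranked 4 of 17664 joined or single islands, and with gaps of up to 25 kb its span stayed at 57.8 kb while its rank was 103. The domain lay in a region of 2.43 Mb between Cetn3 and Tmem161b that holds no other protein-coding gene than Mef2c, and Tmem161b began 555.2 kb downstream of it. In this region there were 49 KCl islands and 5 basal islands. The last island inside the 200 kb limit downstream, at 199.3 kb, was 2.23-fold enriched [1.52 to 3.34], and the first outside, at 204.3 kb, was 3.03-fold [1.78 to 5.45]. Upstream, the last inside, at 198.6 kb, was 2.22-fold [1.28 to 4.05] and the first outside, at 286.6 kb, was 2.81-fold [1.59 to 5.29].

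Inside Mef2c itself, 10 KCl islands covered 26.0% of the gene (chromosome 13, 83504017 to 83667079, plus strand). In the genome, 31.1% of protein-coding genes had an island in the body. Basal islands were called in 1.27% of gene bodies, and none in Mef2c. The widest (83522401 to 83533000) was 10.6 kb wide with 310 IP and 117 control reads (1.66-fold [1.34 to 2.08]). Next to it lay one of 3.8 kb (83534001 to 83537800), where 125 IP reads stood against 31 control reads (2.53-fold [1.70 to 3.88]). The largest fold in the gene, 3.04 [1.98 to 4.84], was at an island of 2.2 kb (83603001 to 83605200), which held 126 IP reads beside 26 control reads,, which overlapped the noncoding gene Gm52043. Further islands of 3.8, 6.6 and 3.2 kb began at 83553401, 83564401 and 83572001, with folds of 2.0, 1.77 and 1.69. The last 3, at the 3′ part of the gene, had folds of 2.36, 1.88 and 1.75, and the final one (83664801 to 83667800) covered the 3′ end. These intervals overlapped one another widely, apart from that of the 10.6 kb island, whose upper limit of 2.08 was just above the lower limit of 1.98 at 83603001. Exons and introns were not told apart here.

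All 3 RefSeq transcription starts of Mef2c lay inside KCl islands. The first, at 83504034, was in an island with 83 IP and 24 control reads (2.17-fold [1.37 to 3.58]), which also held the start of the noncoding gene Gm33317 on the other strand. The second, at 83523656, was in the 10.6 kb island. The third, at 83573607, was in the island with 78 IP and 29 control reads (1.69-fold [1.09 to 2.68]). Upstream of the gene were 5 islands of 1.2 to 4.2 kb. Those beginning at 83303601, 83354801, 83451201 and 83461401 had folds of 2.22, 2.04, 1.78 and 3.01, and the fifth is the one shared with basal neurons. A further island, 5.12 kb downstream (83672201 to 83675800), had 2.45-fold [1.50 to 4.17].

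Mef2d was the other paralogue with an island of 10 kb or more nearby, and it too lay downstream of the gene (chromosome 3, 88141941 to 88172091, plus strand). Its widest KCl island, of 10.8 kb (88201401 to 88212200), lay 29.3 kb beyond the gene with 304 IP and 120 control reads (1.59-fold [1.28 to 1.98]). The next, of 6.2 kb (88216801 to 88223000), had 197 IP and 73 control reads (1.69-fold [1.29 to 2.25]), and another of 2.8 kb (88224201 to 88227000) had 82 and 36 (1.43-fold [0.956 to 2.18]). All 3 overlapped Gm3764, the noncoding gene in which the Mir9-1 hairpin lies, and the last 2 were nearer to Rhbg, an ammonium transporter gene, than to Mef2d. The hairpin itself was in no island: it lay in the gap of 4.6 kb between the first and second, 3.40 kb after one and 1.11 kb before the other. The joined span of these 3 was 25.6 kb with 583 IP and 229 control reads (1.60-fold [1.37 to 1.87]). The Mef2c domain had 2.23-fold, and the difference was not tested. No basal island was called within 3029 kb before or 5648 kb after Mef2d. The basal list had only 711 islands in all, and such distances were not particular to Mef2d. They were 9137 and 7530 kb at Mef2a, and 675 and 997 kb at Mef2b.

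At the 5′ end of Mef2d lay a pair of KCl islands. One (88137201 to 88141000), 0.941 kb upstream, had 133 IP and 56 control reads (1.49-fold [1.08 to 2.08]). The other (88142001 to 88144800) covered the RefSeq start at 88142372, and 79 IP reads stood against 35 control reads there (1.42-fold [0.941 to 2.18]), an interval that includes 1. The remaining islands were at other genes: one at the adjoining starts of Tsacc and Cct3, a chaperonin subunit gene (1.72-fold [1.05 to 2.91]), and one at the start of Smg5, a gene of nonsense-mediated decay (2.13-fold [1.12 to 4.30]).

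Mef2a had 2 islands in the gene and 2 outside it (chromosome 7, 67231163 to 67376456, minus strand). That at the start (67370801 to 67374000) held the RefSeq start at 67372858, with 105 IP and 40 control reads (1.65-fold [1.14 to 2.44]). The other in the gene (67243201 to 67245600) lay toward the 3′ end, where 66 IP reads stood against 24 control reads (1.73-fold [1.07 to 2.88]). Upstream by 13.9 kb, an island of 1.6 kb (67390401 to 67392000) had 62 IP and 19 control reads (2.05-fold [1.21 to 3.63]). The fourth, 96.2 kb downstream and inside Adamts17, a metalloprotease gene, had 51 IP and 10 control reads (3.20-fold [1.61 to 7.08]). The island with the largest fold was therefore in a neighbouring gene.

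Mef2b alone had no island in the gene or within 10 kb of it (chromosome 8, 70152761 to 70167488, plus strand), where 38.9% of protein-coding genes had one in KCl and 1.68% in basal neurons. The annotated gene Gm45929 spans Mef2b and its neighbour Borcs8, and held no island either. The nearest, 31.8 kb upstream (70118401 to 70121000), covered the start of Ncan, the gene of the neural proteoglycan neurocan, with 82 IP and 27 control reads (1.91-fold [1.22 to 3.07]). The others were at Gdf1 and Cers1, which share a transcript (62 IP and 23 control reads, 1.69-fold [1.03 to 2.86]), and at the start of Upf1, a helicase of nonsense-mediated decay (46 and 20, 1.44-fold [0.838 to 2.58]). The Mef2b window held 20 other protein-coding genes, that of Mef2d 17, that of Mef2a 3 and that of Mef2c 0. All 3 islands near Mef2b lay in neighbouring genes, whereas 10 of 20 islands near Mef2c lay in Mef2c, and 7 of 20 overlapped no RefSeq gene of any kind. Gene length differs between them: Mef2b takes up 14.7 kb of its 414.7 kb window and Mef2c 163.1 kb of its 563.1 kb window. Its part in this contrast was not tested.

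**Figure D4:**
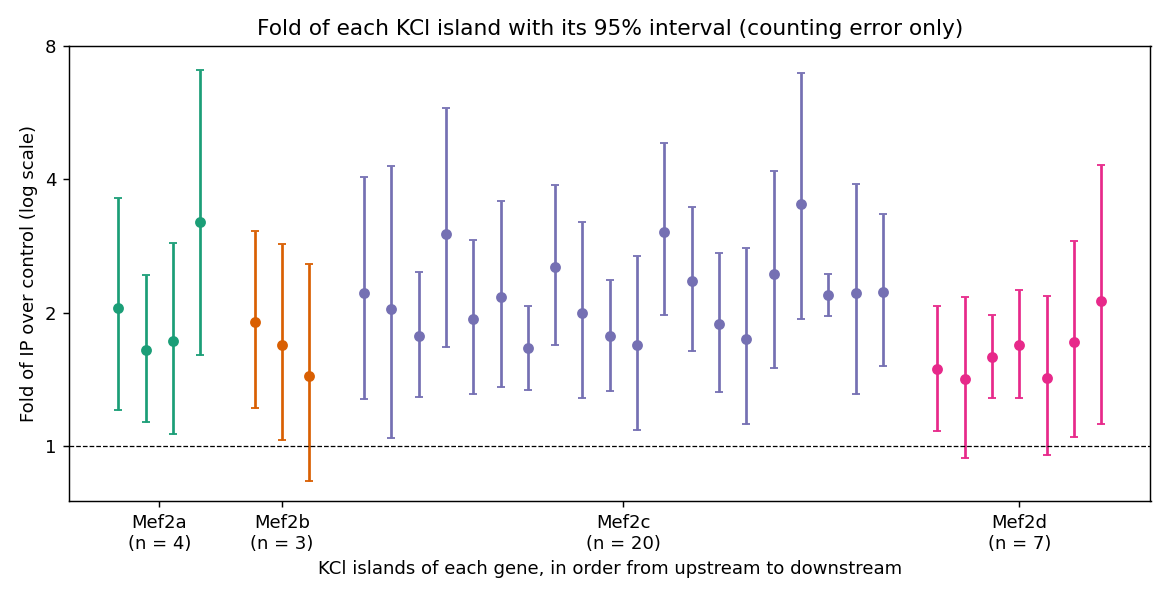
Fold of IP over control, on a log scale, for each of the 34 KCl islands, ordered from upstream to downstream within each gene, with 95% intervals that cover counting error only. The dashed line marks 1, and 3 intervals include it, 2 at Mef2d and 1 at Mef2b. The interval of the broad Mef2c island, 1.97 to 2.45, is the narrowest.

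By gene ends, 2 of the 4 paralogues, Mef2c and Mef2d, carried a KCl island no more than 2 kb away, against 25.2% of protein-coding genes, and none had a basal one, against 0.411%. The RefSeq starts gave 3 of 4, since the start of Mef2a lies inside its annotated gene. Of 6 RefSeq starts of the 4 genes, 5 lay inside a KCl island, where 21.9% of all such starts did, and 0 inside a basal island, where 0.179% did. CpG content differed among the starts that were covered. Across the genome, 37.4% of starts with a CpG ratio (observed over expected) of at least 0.6 lay in a KCl island, and 7.78% of the others. The Mef2a start had a ratio of 0.929, the Mef2d start 0.619 and the second Mef2c start 0.612, while the first and the third Mef2c starts had 0.109 and 0.228 and were covered as well. The uncovered Mef2b start had 0.457.

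The sequences around these starts are shown because they set the covered starts beside the uncovered start of Mef2b. Each runs from 250 bases before to 50 after the RefSeq start (GRCm38.p6), 5′ to 3′ on the strand of the gene. Capitals mark matches on either strand to the following patterns, where N is any base. CTANNNNTAG is a loose form of the MEF2 core, and TGANTCA is a loose form of the AP-1 site. TGACGTCA is the cyclic AMP response element and GGGCGG the GC box. No match overlapped one of another motif:
Mef2a, chr7:67372809-67373108, minus strand: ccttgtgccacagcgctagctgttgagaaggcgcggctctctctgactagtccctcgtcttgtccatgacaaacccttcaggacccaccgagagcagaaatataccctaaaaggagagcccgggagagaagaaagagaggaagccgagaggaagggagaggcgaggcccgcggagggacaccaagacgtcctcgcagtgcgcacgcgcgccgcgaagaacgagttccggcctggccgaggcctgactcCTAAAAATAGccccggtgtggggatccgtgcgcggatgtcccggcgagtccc
Mef2b, chr8:70152511-70152810, plus strand: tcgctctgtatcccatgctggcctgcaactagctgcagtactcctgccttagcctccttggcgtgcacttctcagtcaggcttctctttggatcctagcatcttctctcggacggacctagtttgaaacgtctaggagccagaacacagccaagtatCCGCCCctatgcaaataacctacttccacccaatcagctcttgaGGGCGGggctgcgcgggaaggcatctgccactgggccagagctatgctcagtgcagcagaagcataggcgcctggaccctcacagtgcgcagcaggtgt
Mef2c start at 83504034, chr13:83503784-83504083, plus strand: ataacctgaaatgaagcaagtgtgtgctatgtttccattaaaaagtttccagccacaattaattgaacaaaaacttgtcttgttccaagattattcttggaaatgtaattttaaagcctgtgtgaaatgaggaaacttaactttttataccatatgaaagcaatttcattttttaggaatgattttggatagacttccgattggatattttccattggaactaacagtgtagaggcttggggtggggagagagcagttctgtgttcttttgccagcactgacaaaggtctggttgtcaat
Mef2c start at 83523656, chr13:83523406-83523705, plus strand: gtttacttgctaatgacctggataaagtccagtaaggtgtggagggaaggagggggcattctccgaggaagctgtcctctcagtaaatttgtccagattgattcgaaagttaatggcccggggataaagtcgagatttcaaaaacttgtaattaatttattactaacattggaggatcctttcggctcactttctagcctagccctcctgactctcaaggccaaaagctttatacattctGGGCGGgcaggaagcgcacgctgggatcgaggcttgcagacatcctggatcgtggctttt
Mef2c start at 83573607, chr13:83573357-83573656, plus strand: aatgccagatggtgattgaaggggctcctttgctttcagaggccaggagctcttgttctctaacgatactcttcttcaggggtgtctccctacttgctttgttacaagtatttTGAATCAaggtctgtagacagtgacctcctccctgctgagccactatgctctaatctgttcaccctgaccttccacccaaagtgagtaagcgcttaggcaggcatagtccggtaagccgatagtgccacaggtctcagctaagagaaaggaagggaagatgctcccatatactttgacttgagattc
Mef2d, chr3:88142122-88142421, plus strand: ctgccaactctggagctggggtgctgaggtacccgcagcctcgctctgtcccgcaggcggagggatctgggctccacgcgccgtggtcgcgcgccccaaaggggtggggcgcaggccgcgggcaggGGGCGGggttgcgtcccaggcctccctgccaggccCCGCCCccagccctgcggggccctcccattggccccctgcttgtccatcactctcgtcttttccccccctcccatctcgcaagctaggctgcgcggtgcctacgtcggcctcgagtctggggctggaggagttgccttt

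Mef2a was the only one of the 4 genes with a match to the MEF2 pattern, CTAAAAATAG, which begins 2 bases before the first transcribed base. The loose pattern, with any 4 middle bases, occurred in 3.47% of 21263 starts of protein-coding genes. The share was 2.75% of those inside a KCl island and 3.67% of those outside. Matches with only A and T in the middle, as at Mef2a, were not counted apart. A match to the loose AP-1 pattern, TGAATCA, lay 137 bases before the third Mef2c start. It has A at the free centre base, so it fits the loose pattern only. With any centre base, 6.99% of all starts had a match (3.97% inside a KCl island, 7.84% outside). The Mef2b and Mef2d sequences each had 2 GC boxes and the second Mef2c start had 1, where 46.2% of all starts had at least 1. For the GC box the share was 71.4% inside a KCl island and 39.1% outside, and the Mef2b start was outside. The cyclic AMP response element occurred at 2.23% of starts (3.54% inside, 1.87% outside) and at 0 of these 6. The first Mef2c start had no match to any of the 4 motifs. These are matches of letters and do not show binding.

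Genes that act on MEF2 proteins, or that MEF2 is reported to control, were counted in the same way by islands at their ends, against 25.2% of all protein-coding genes. Of 20 regulators, 13 had one in KCl and 0 in basal neurons, where 0.411% of those genes did. Among end islands in KCl, the largest folds were those of Ppp3ca, a catalytic subunit of calcineurin (148 IP and 40 control reads, 2.32-fold [1.63 to 3.38]), and Crebbp, a histone acetyltransferase (58 and 16, 2.28-fold [1.29 to 4.24]). They were followed by Hdac5, a class IIa deacetylase (140 and 40, 2.20-fold [1.54 to 3.21]), and Ppp3r1, a regulatory subunit of calcineurin (59 and 17, 2.18-fold [1.25 to 3.99]). With islands of at least 2-fold, 7 of 20 were left. The share of all protein-coding genes at that limit was not computed, so this count has no background. Hdac9, another class IIa deacetylase, was the only regulator with basal islands, 2 in its body (1.59-fold [1.01 to 2.53] and 2.14-fold [1.31 to 3.59]), both overlapping KCl islands.

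Of 12 reported targets, 9 carried an end island in KCl and 1 in basal neurons, where 0.411% of all protein-coding genes had one. Several of these genes were already known to have islands here, so the count is not independent evidence. Among end islands in KCl, the largest fold was at Kcna1, a potassium channel gene (85 IP and 23 control reads, 2.32-fold [1.45 to 3.86]). Klf6, a zinc finger factor, followed (201 and 55, 2.30-fold [1.70 to 3.15]). Homer1, a synaptic scaffold gene (162 and 50, 2.03-fold [1.47 to 2.85]), and Jun, an AP-1 subunit (236 and 77, 1.93-fold [1.48 to 2.52]), came next. Pcdh10, an adhesion gene tied to MEF2-dependent synapse loss, had the basal end island (68 IP and 42 control reads, 1.84-fold [1.23 to 2.77]). This island lay inside a KCl island of 7.2 kb (252 and 92, 1.72-fold [1.35 to 2.21]). Pcdh10 also had a basal island away from its ends (45396601 to 45397400, 28 and 11, 2.89-fold [1.40 to 6.44]). That one overlapped a KCl island of 0.6 kb (44 and 6, 4.61-fold [1.96 to 13.2]). Arc and Nr4a2 were among those with none at a gene end, named after their values were seen. Nr4a2 had a KCl island of 5.0 kb in its body (57113601 to 57118600, 153 IP and 62 control reads, 1.55-fold [1.15 to 2.12]). Counting islands in the body and up to 10 kb outside it, 11 of 12 targets had one in KCl, against 38.9% of all protein-coding genes. With end islands of at least 2-fold, 3 of 12 were left in KCl and 0 in basal neurons, again without a computed share of all genes.

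The genes whose surroundings were most like those of Mef2c were sought by 4 quantities within 200 kb: the number of KCl islands, their covered length, the widest KCl island and the number of basal islands. Likeness was the largest difference in percentile rank over these 4, in 2 libraries. Gpm6a, which encodes a neuronal membrane glycoprotein, was nearest, 0.242 percentage points away, with 25 KCl islands, the widest 11.8 kb, and 3 basal islands. Btbd9 (19 KCl and 7 basal islands) and Tcf4, a basic helix-loop-helix factor (22 and 2), were also among the nearest. Dnah8 and Glo1, which neighbour Btbd9 and share islands with it, tied for the fifth place. In Tcf4 the KCl islands covered 124 kb, more than at Mef2c, with a widest island of 21.4 kb. Each of these genes had narrower widest islands than the 38.6 kb at Mef2c.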

How the data were processed

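The island lists of the 2 IP libraries were used, 1 per condition, and files of the input samples were not analysed here. BWA alignment to mm10 (GRCm38) and SICER 1.0 island calling are named in the submitters' processing notes; the window of 200 bp, gap of 600 bp and FDR of 0.01 come from the names of the deposited lists. The authors deposited raw IP and control counts per island, a p-value with its FDR, and the fold. The deposited fold equalled IP over control reads divided by 0.880 in the basal list and by 1.59 in the KCl list, within 0.1%, for 100% of islands with control reads. Which input was the control of which list is not labelled, and total depths are unknown.

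Positions were made 1-based. Genes, starts, microRNAs and sequences were those of RefSeq on GRCm38.p6, the same build, and all 4 Mef2 genes matched by symbol. The members, gene lists and alternatives were chosen with earlier results of these data known. Overlap needed 1 bp. Fold intervals come from the exact binomial interval of IP among IP and control reads, and reads without molecular identifiers are not independent molecules. With 1 library per condition no test was made. Named regulators and targets were up to 4 of each list by KCl fold at an end, and any with a basal island. A few genes that these rules or lists would name are not reported here. Islands given singly lay in a Mef2 gene or within 2 kb of its ends, were among the 5 widest or the 5 of highest fold of their gene, or overlapped a basal island, and the rest were added. Code was tested on simulated islands and counts, with Python 3.11.15, numpy 2.4.6, pandas 2.3.3 and scipy 1.17.1.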

Additional observations from a re-analysis of the deposited data

How the results depend on the processing

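The order of the paralogues by KCl islands, Mef2c first and Mef2b last, was kept within 100 kb, 50 kb and 10 kb, at an FDR of at most 1e-05, at 2-fold and with intervals above 1, apart from ties and from Mef2a and Mef2d changing places at 2-fold. Within 10 kb the KCl counts were 11 for Mef2c, 2 for Mef2a, 2 for Mef2d and 0 for Mef2b, and the basal count of Mef2c was 0. Within 50 kb they were 4 for Mef2d and 1 for Mef2b, with 2 basal islands at Mef2c, and within 100 kb 1 for Mef2b. At an FDR of at most 1e-05 they were 4 for Mef2d and 1 for Mef2b, with 1 basal island at Mef2c and 0 MEF2 targets with a basal island at a gene end. At 2-fold they were 13 for Mef2c, 2 for Mef2a, 1 for Mef2d and 0 for Mef2b, with 0 basal islands at Mef2c. By islands at gene ends, there were 7 regulators and 3 targets in KCl and 0 targets in basal neurons at that limit. The share of all genes there was not computed. In the gene body and 10 kb, 1 regulator had a basal island. The rank of the Mef2c domain by span was 103 with gaps of up to 25 kb. The cause of these differences was not tested, apart from the fewer islands that a shorter distance, a stricter FDR or a minimum fold admits by construction. The count of 4 of 4 basal islands overlapping KCl islands could not change under the overlap rules tried, since each lay wholly inside one. RefSeq starts in place of gene ends were added after seeing the data. The floor for 0 control reads was not run, since no Mef2 island had 0. No paired analysis was possible because each condition had 1 IP library. The depth of the libraries is unknown, and 1 library per condition leaves every difference without a replicate check.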

Other observations

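The third gene for miR-9, Mir9-3, lies on chromosome 7 as Mef2a does, but 12129 kb from it. Its hairpin was covered by a KCl island of 3.2 kb with 83 IP and 27 control reads (1.93-fold [1.24 to 3.10]) and by no basal island. Within 200 kb it had 9 KCl islands, the widest 8.2 kb, against 13 for Mir9-2 and 7 for Mir9-1. Of the 3 miR-9 genes, Mir9-2 was the one with basal islands within 200 kb, 3 of them.

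The 3 widest KCl islands of at least 2-fold were all on chromosome 13, chosen here after their values were seen. After the Mef2c island came one of 16.2 kb that lay 424.8 kb from Ccnh (84748401 to 84764600, 2.17-fold [1.86 to 2.55]). The third, of 15.4 kb, overlapped Nr2f1, a nuclear receptor gene of cortical patterning (2.05-fold [1.67 to 2.52]). Beyond the 200 kb limit of Mef2c, at 385.7 kb, lay an island of 17.0 kb with 556 IP and 181 control reads (1.93-fold [1.63 to 2.29]), rank 8 by width.

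Genes of brain proteoglycans (Ncan, Bcan) and of proteoglycan link proteins (Hapln4, Hapln2) neighbour Mef2b and Mef2d. Ncan, beside Mef2b, had a KCl island at its start, while its neighbour Hapln4 had none, nor did Bcan and Hapln2 beside Mef2d, so 1 of these 4 genes had an island at an end, near the 25.2% of all protein-coding genes.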
